A study of Mus musculus with 65 samples.

Results

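Brown and beige fat cells burn fuel to make heat, and 8 genes that mark them were followed here in mouse mammary glands and mammary tumours: Ucp1, Cidea, Elovl3, Cox7a1, Cox8b, Ppargc1a, Dio2 and Prdm16. They were chosen by name, as the genes to which single-gene probe sets of the array are annotated, and 17 probe sets of the 34958 with 1 gene belong to them. These are 8 genes of 18194 measured. On GRCm38.p6 the genes lie at chr8:83290348-83298456 (Ucp1), chr18:67343564-67367794 (Cidea), chr19:46131897-46135694 (Elovl3), chr7:30184171-30186030 (Cox7a1), chr7:140898942-140900446 (Cox8b), chr5:51454249-52115853 (Ppargc1a), chr12:90724552-90739038 (Dio2) and chr4:154316122-154637360 (Prdm16). RNA was hybridised to Affymetrix arrays from 17 inguinal mammary glands and 48 mammary tumours, all of the BALB/c strain. The glands came from littermates, 10 weeks old per the labels, that were heterozygous for Tgfb1 (HT) or wild-type (WT), and all of these mice had been injected with estrogen and progesterone before exposure. HT glands were taken after sham exposure (n = 3), 1 week after 10 cGy (n = 2) and 4 weeks after 10 cGy (n = 3), and WT glands after sham exposure (n = 3), 1 week after 10 cGy (n = 3) and 4 weeks after 10 cGy (n = 3). Sham glands were taken at 1 week, so in any comparison of a 4-week gland with a sham gland the effects of dose and of elapsed time cannot be told apart. The tumours arose from p53-null mammary fragments transplanted into fat pads cleared of epithelium at 3 weeks of age, in HT hosts that were irradiated (n = 10) or sham-treated (n = 6) and in WT hosts that were irradiated (n = 23) or sham-treated (n = 9), 3 days before transplantation. For 1 tumour, placed by its title among irradiated WT hosts, other labels read sham. In the tumours HT and WT name the host, while every tumour grew from p53-null donor tissue; the sources used here do not give the dose of the hosts.

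Heat production in brown fat rests on UCP1, a protein of the inner mitochondrial membrane that lets protons flow back without making ATP. Cold and adrenergic signals raise cyclic AMP, which turns on Ucp1, Dio2 and Ppargc1a, and PRDM16 keeps cells in the brown or beige programme. The inguinal fat pad, in which the mouse mammary gland lies, is a white depot where beige cells can appear. Several of the other markers are shared with tissues that lie in or beside the gland: COX7A1 and COX8B are subunit isoforms of cytochrome c oxidase found in heart, skeletal muscle and brown fat, and CIDEA, a lipid droplet protein, is also made by the milk-secreting epithelium of the mouse.

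Ucp1 defines the programme and gave no signal above background, and the signal of Cox8b varied with that of the respiratory chain genes. Dio2 was the 1 tested member whose WT 4-week arrays all lay above the WT sham arrays, as did those of 3.46% of all genes tested. Promoter sequence is shown for these 3 genes. Each is the 250 bases before the gene's start from RefSeq (GRCm38.p6), written 5′ to 3′ on the strand of the gene: Ucp1 at chr8:83290098-83290347 (plus strand), Cox8b at chr7:140900447-140900696 (minus strand) and Dio2 at chr12:90739039-90739288 (minus strand). Capitals mark letters matching, on either strand, TGACG (the core of a cyclic AMP response element), AGGTCA (the core bound by nuclear receptors), CAGCTG (an E-box bound by myogenic factors) or TATAAA (the TATA box).
Ucp1: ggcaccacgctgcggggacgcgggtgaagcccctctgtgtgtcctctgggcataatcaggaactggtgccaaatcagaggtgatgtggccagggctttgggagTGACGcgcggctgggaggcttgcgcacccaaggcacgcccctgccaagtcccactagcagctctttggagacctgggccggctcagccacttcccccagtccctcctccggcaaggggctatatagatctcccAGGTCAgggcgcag
Cox8b: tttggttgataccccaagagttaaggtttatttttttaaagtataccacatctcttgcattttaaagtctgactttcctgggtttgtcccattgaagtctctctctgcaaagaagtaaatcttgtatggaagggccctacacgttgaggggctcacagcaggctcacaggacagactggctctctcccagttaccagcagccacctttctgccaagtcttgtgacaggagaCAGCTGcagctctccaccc
Dio2: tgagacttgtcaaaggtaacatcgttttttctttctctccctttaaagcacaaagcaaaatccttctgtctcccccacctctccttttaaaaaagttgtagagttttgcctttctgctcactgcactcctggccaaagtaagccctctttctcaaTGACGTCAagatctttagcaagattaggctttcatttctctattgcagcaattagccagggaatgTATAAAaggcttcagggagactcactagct
In the Dio2 window TGACG occurs 2 times, starting 95 bases before the gene on one strand and 92 bases before it on the other, so that the matches overlap, and a TATAAA starts 30 bases before it. The Ucp1 window holds TGACG starting 147 bases before the gene and AGGTCA starting 14 bases before it. In the Cox8b window CAGCTG starts 19 bases before the gene, and TGACG and AGGTCA are not in it. Among 32851 promoter windows of this length, TGACG occurred in 17.8%, CAGCTG in 13.0%, AGGTCA in 14.0% and TATAAA in 12.4%. These matches are descriptions of letters, and their relation to the levels below was not tested.

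A level below is the log2 of the deposited intensity (glands) or the deposited log2 value (tumours), and the tissues were not compared with each other. An array was counted as above background for a probe set when its level exceeded the 95th percentile, on that array, of 84 probe sets for olfactory, vomeronasal and taste receptors, which was 4.22 to 4.99 in glands and 5.13 to 5.78 in tumours. Where a gene has several probe sets, the one with the highest mean in the tissue stands for it. All 12 measured white adipocyte genes, 11 luminal and 9 basal epithelial genes were above background in every gland. The mean of 16 skeletal muscle genes was 6.96 to 11.21 in 7 glands (WT sham arrays 2 and 3, WT 1-week array 3, WT 4-week arrays 2 and 3, HT sham array 1 and HT 1-week array 2) and at most 5.14 in the other 10, with 3 of the 16 genes above background in all glands. B cell genes stood apart in 3 glands (WT sham array 1, WT 1-week array 1 and HT sham array 1), although lymph nodes had been removed per the labels. Below, differences of Cox8b, Cox7a1, Cidea and Dio2 without the 7 muscle-rich arrays are given where they moved by more than 1.5 times, from a fit in which a lone array of a group is assumed to vary like the other groups. Without the 3 arrays rich in B cell genes, the differences of these 4 genes that are printed below moved by less than that. Differences of these genes that are not printed, such as Cox7a1 for HT 4 weeks minus HT sham, can move by more.

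Of the 8 genes, 4 were above background in every gland: Cox8b, Cidea, Cox7a1 and Dio2. At the stricter 99th percentile of the receptor probe sets this held for Cox8b and Cidea, with Cox7a1 above it in 15 of 17 glands and Dio2 in 14. Ucp1 and Elovl3 were above background in 0 of 17 glands. Ppargc1a and Prdm16 lay near background, above it in 5 and 6 of 17 glands. In the plot of the 8 genes by array the uncoupling protein and the elongase lie under the background of every array, and Cox8b, Cidea, Cox7a1 and Dio2 lie above it.

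**Figure D1:**
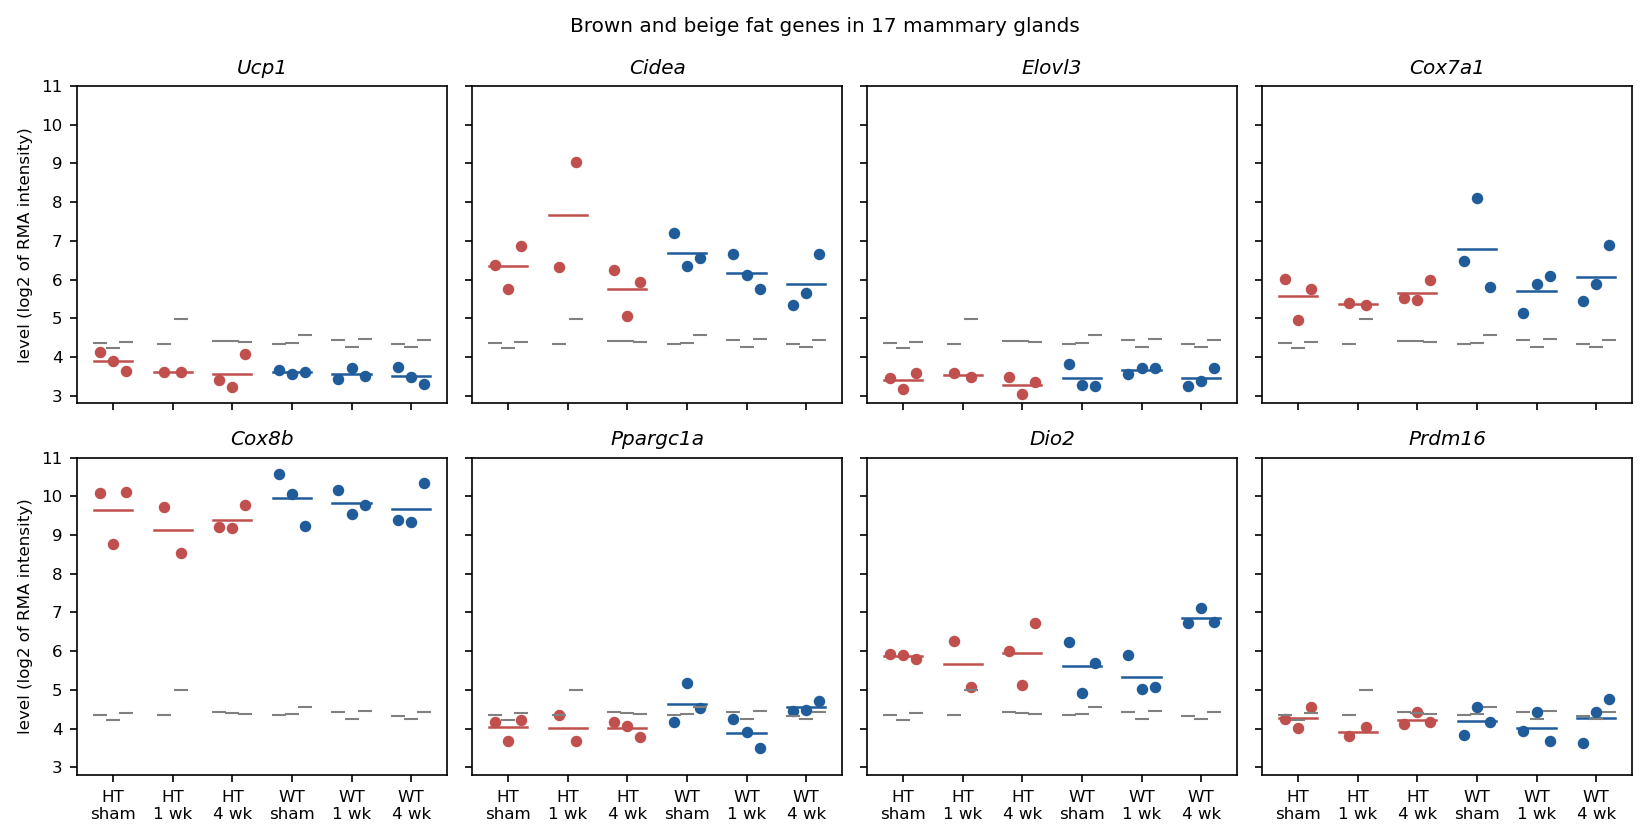
Levels of the 8 genes (log2 of RMA intensity) in each gland array, HT groups in red left of WT groups in blue, each ordered sham, 1 week and 4 weeks after 10 cGy; points are arrays, coloured lines group means and short grey ticks each array's receptor background. Ucp1 and Elovl3 lie under the ticks in all 17 arrays and Cox8b, Cidea, Cox7a1 and Dio2 above them.

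The uncoupling protein itself gave no detectable signal. Ucp1 (probe set 1418197_at) read 4.13, 3.88 and 3.65 in HT sham glands, 3.60 and 3.60 at 1 week and 3.41, 3.22 and 4.08 at 4 weeks, against 3.66, 3.57 and 3.60 in WT sham glands, 3.42, 3.70 and 3.51 at 1 week and 3.73, 3.48 and 3.30 at 4 weeks. All of these values are under the background of their own array, so differences among them do not order the glands. Its relative Ucp3, an uncoupling protein of muscle and brown fat, was above background in 17 of 17 glands, at 5.54 ± 0.28 (SD). Elovl3, an elongase of very long fatty acids induced in brown fat, lay between 3.03 and 3.83, whereas its relatives Elovl1, Elovl5 and Elovl6 were above background in 17 of 17 glands.

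The transcriptional regulators were near the limit of detection. Ppargc1a, the coactivator of mitochondrial biogenesis, has 5 probe sets, and the main one (1460336_at) read 4.18, 3.69 and 4.23 in HT sham glands, 4.35 and 3.67 at 1 week and 4.18, 4.08 and 3.78 at 4 weeks, against 4.18, 5.18 and 4.54 in WT sham glands, 4.24, 3.90 and 3.49 at 1 week and 4.44, 4.48 and 4.72 at 4 weeks. All 3 WT 4-week arrays were above background, as were WT sham array 2 and HT 1-week array 1, and no other array was. The WT 4-week arrays overlapped the WT sham arrays. Another probe set (1456395_at) was above background in 3 of 17 glands and the other 3 in 0, with correlations between probe sets of 0.25 to 0.73. The HT minus WT difference averaged over the 3 conditions was -0.33 (95% interval -0.66 to -0.0056, unadjusted p = 0.0467, limma adjusted p = 0.429 in the fit with no filter on dim genes). The highest arrays, WT sham arrays 2 and 3 and WT 4-week arrays 2 and 3, were muscle-rich. The other muscle-rich arrays read 3.49 (WT 1-week array 3), 4.18 (HT sham array 1) and 3.67 (HT 1-week array 2). A part of muscle content in this difference was not tested. Prdm16, the zinc-finger switch of brown and beige identity, has 4 probe sets, of which 1440870_at was above background in 6 of 17 glands (3.63 to 4.76) and the others in 0, and the 4 did not vary together (correlations from -0.19 to 0.41). Their relatives were readily detected: Ppargc1b read 7.56 ± 0.19, Pprc1 7.92 ± 0.21 and Mecom, a relative of Prdm16, 6.54 ± 0.28 (SD, n = 17 each).

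Cox8b varied least among the 4 genes above background in every gland (SD 0.56 over 17 glands). It read 10.09, 8.77 and 10.12 in HT sham glands, 9.73 and 8.54 at 1 week and 9.22, 9.19 and 9.78 at 4 weeks, against 10.58, 10.05 and 9.25 in WT sham glands, 10.17, 9.54 and 9.77 at 1 week and 9.38, 9.33 and 10.34 at 4 weeks. The groups overlapped in every comparison. The HT minus WT difference averaged over conditions was -0.43 ± 0.26 (SE; 95% interval -0.98 to 0.13, limma adjusted p = 0.50), and -0.23 without HT 1-week array 2, the array with the lowest level, -0.28 without HT sham array 2 and -0.63 without HT 1-week array 1. Cox8a, the widely expressed isoform, read 11.29 ± 0.17 (SD, n = 17), a narrower spread than that of Cox8b.

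Across glands Cox8b varied with the nuclear-encoded respiratory chain. Against the mean of 18 respiratory chain genes its Pearson r was 0.79 (permutation p = 0.00017, adjusted p = 0.0048 over 28 relations with list means) and Spearman rho 0.75 (permutation p = 0.00081, adjusted 0.0227) in 17 glands. Without the 2 glands farthest from the median of that mean r was 0.79, and on deviations from group means it was 0.91. With the white adipocyte mean r was 0.51 (permutation p = 0.0383, adjusted p = 0.357) and rho 0.48 (permutation p = 0.0563, adjusted p = 0.731). That r was 0.505 without the 2 farthest glands and 0.67 on deviations from group means. With skeletal muscle genes r was 0.50 in the 7 muscle-rich glands (exact permutation p = 0.261) and -0.01 in the other 10 (permutation p = 0.969). The respiratory chain mean itself spanned only 10.73 to 11.07, against 8.54 to 10.58 for Cox8b. The genes most like Cox8b over the 17 glands were Ppp1r1a (r = 0.90), an inhibitor of protein phosphatase 1, Gchfr (0.86), which regulates GTP cyclohydrolase, and Aldh1l1 (0.86), an enzyme of folate metabolism.

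Cox7a1 was above background in every gland, and its highest value came from a muscle-rich array. HT glands read 6.00, 4.95 and 5.75 after sham, 5.40 and 5.33 at 1 week and 5.53, 5.47 and 6.00 at 4 weeks, against 6.48, 8.12 and 5.79 in WT sham glands, 5.13, 5.88 and 6.09 at 1 week and 5.43, 5.89 and 6.89 at 4 weeks. WT sham array 2, at 8.12, also had the highest skeletal muscle mean, 11.21. Averaged over conditions HT minus WT was -0.66 ± 0.30 (SE; 95% interval -1.30 to -0.01, unadjusted p = 0.0462, limma adjusted p = 0.409), and between sham glands it was -1.23 ± 0.50 (adjusted p = 0.968). With the muscle mean as a covariate these were -0.37 and -0.71, and without the 7 muscle-rich arrays the average was -0.33. Without the 3 arrays rich in B cell genes the average was -0.88 (unadjusted p = 0.0236). Leaving out WT sham array 2 alone brought the sham difference to -0.57. In the 7 muscle-rich glands Cox7a1 and the muscle mean gave r = 0.86 (exact permutation p = 0.0119, adjusted p = 0.167; rho 0.71, exact permutation p = 0.0881) and 0.69 without the 2 farthest, and r = 0.08 in the other 10 (permutation p = 0.829). Its most alike genes over the 17 glands were Ak1 (r = 0.92), adenylate kinase, Pfkm (0.87), the muscle phosphofructokinase, and Adssl1 (0.87), the muscle adenylosuccinate synthetase. These 3 correlations are over all 17 arrays, WT sham array 2 included. Cox7a1 and Cox8b together gave r = 0.55 (permutation p = 0.0191, adjusted p = 0.115 over 6 pairs of genes) and 0.45 without the 2 farthest glands. Cox7a2, the general isoform, read 12.39 ± 0.12 (SD, n = 17).

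**Figure D2:**
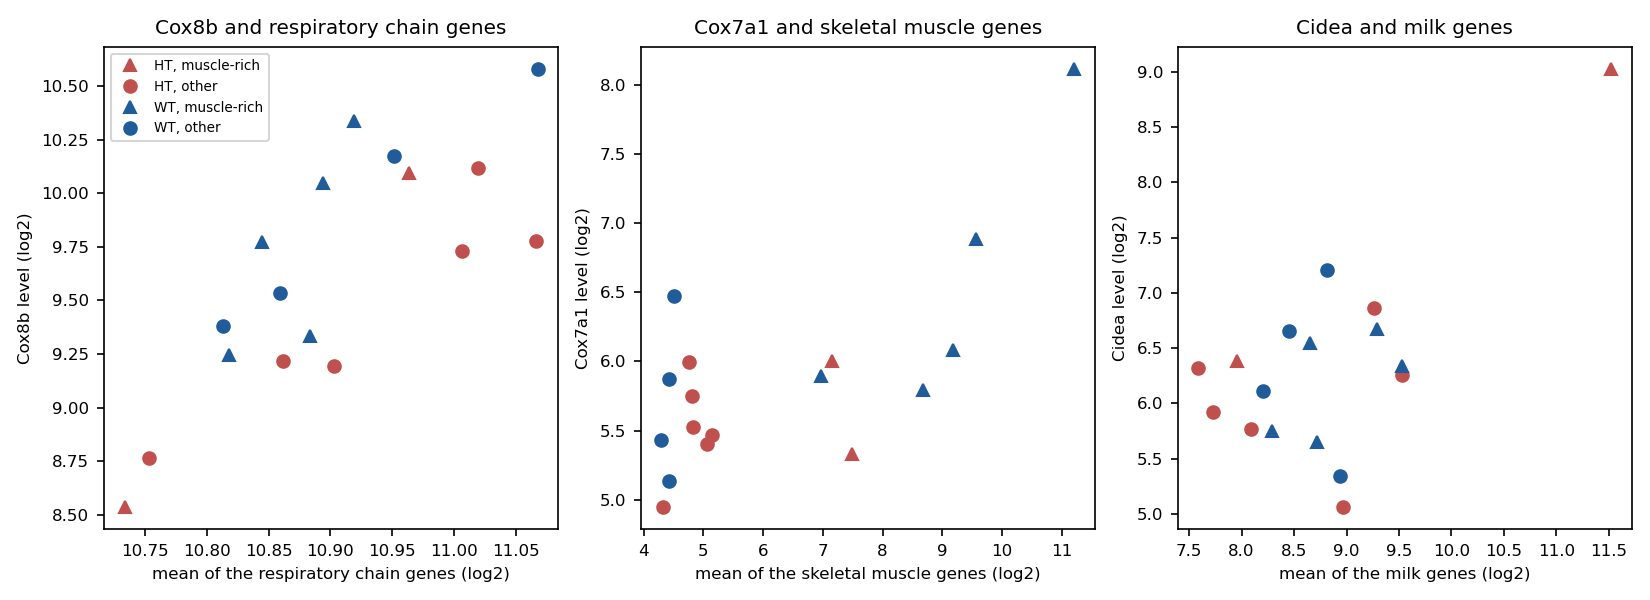
Cox8b, Cox7a1 and Cidea levels (log2) in 17 glands against the mean log2 level of respiratory chain, skeletal muscle and milk genes; red points are HT and blue WT arrays, triangles the 7 muscle-rich arrays. Cox8b and the respiratory chain mean gave r = 0.79, Cox7a1 reaches 8.12 in the array richest in muscle genes, and Cidea reaches 9.03 in the array with a milk mean of 11.52.

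Cidea had 1 array far above the others. HT glands read 6.39, 5.77 and 6.86 after sham, 6.32 and 9.03 at 1 week and 6.26, 5.06 and 5.93 at 4 weeks, against 7.20, 6.34 and 6.55 in WT sham glands, 6.66, 6.11 and 5.75 at 1 week and 5.34, 5.65 and 6.67 at 4 weeks. HT 1-week array 2, at 9.03, also had the highest mean of 10 milk genes (11.52, against 7.59 to 9.53 in the other 16), with Lalba, the milk protein that directs lactose synthesis, at 10.86 (5.06 to 7.19 in the other glands). The same array had the lowest Cox8b (8.54), a muscle mean of 7.49 and the highest receptor background (4.99). The 1-week minus sham difference in HT glands was 1.33 ± 0.64 (SE; 95% interval -0.03 to 2.69, limma adjusted p = 0.998), but -0.021 without that array, which leaves a single HT 1-week array, assumed to vary like the other groups, and 2.69 without the other one. Without the 7 muscle-rich arrays, that array among them, it was 0.003. The change at 1 week in HT minus that in WT was 1.86 ± 0.85 (unadjusted p = 0.0465) and 0.50 without that array, 3.21 without HT 1-week array 1 and 0.82 without the muscle-rich arrays. Over the 16 glands other than that array, Cidea and the milk mean gave r = 0.14 (permutation p = 0.605) and rho 0.16 (permutation p = 0.556). Over 17 glands the genes most like Cidea were Lao1 (r = 0.82), the amino acid oxidase of mouse milk, Lalba (0.80) and Mm2pr (0.78), with the array at 9.03 included. The milk genes were listed after the levels had been seen. Cidec, the white adipocyte relative of Cidea, read 11.08 ± 0.28 and Cideb was above background in 9 of 17 glands. Cidea and Cox8b gave r = -0.01 over 17 glands (rho 0.45, permutation p = 0.0723, adjusted p = 0.217). Without the 2 glands farthest from the median of Cox8b r was 0.73, so the value of r depends on those glands.

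Dio2, the deiodinase that turns thyroxine into active T3 inside cells, was the 1 tested member whose WT 4-week arrays all lay above the WT sham arrays. WT 4-week glands read 6.74, 7.11 and 6.75, against 6.23, 4.91 and 5.69 in WT sham glands, and every 4-week array was above every sham array. The difference was 1.26 ± 0.41 (SE; 95% interval 0.38 to 2.13, unadjusted p = 0.0081), but limma's adjusted p over 10916 genes was 0.9997, so it did not pass. Every array was higher at 4 weeks in WT glands for 3.46% of all genes tested. No tested member stood apart in the other directions and group pairs examined, where 1.91% to 12.0% of all genes did. WT 1-week glands read 5.90, 5.02 and 5.07. In HT glands Dio2 read 6.00, 5.14 and 6.73 at 4 weeks, against 5.92, 5.91 and 5.81 in sham glands, and 6.27 and 5.08 at 1 week; the 4-week minus sham difference was 0.08 ± 0.41. The 4-week change in HT minus that in WT was -1.18 ± 0.58 (95% interval -2.42 to 0.06, unadjusted p = 0.0605, limma adjusted p = 1.00), so a difference in response between genotypes was not shown. It was -0.41 without the 7 muscle-rich arrays and -0.77 without HT 4-week array 2. The other probe sets of Dio2, near background (above it in 2 and 3 of 17 glands), gave 0.27 and 0.68 for WT 4 weeks minus sham. Of the 3 WT 4-week arrays 2 are muscle-rich, and without the 7 muscle-rich arrays, which leaves 1 array in each of these groups, the difference was 0.51, that of 6.74 from 6.23, with no spread of its own; with the muscle mean as a covariate it was 1.11. Whether muscle content has a part in it was not tested further. The genes most like Dio2 over 17 glands were Mrpl39 (r = 0.80), a protein of the mitochondrial ribosome, Oxtr (0.76), the oxytocin receptor of the contractile basal cells, and Zfp185 (0.75). Dio1, the liver and kidney deiodinase, was above background in 0 of 17 glands.

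No tested member passed limma's threshold (adjusted p under 0.05) in any of the 9 gland comparisons. The 4 genes with levels high enough to be tested gave an unadjusted p under 0.05 in 7 of 36 tests, and the 4 dimmer genes, in a fit with no filter, in 3 of 36, with differences from -0.76 to 0.73. These are 19.4% and 8.33% of the tests, against 5.56% of the tests of all genes in the filtered fit and 6.26% in the fit with no filter. Between comparisons the share of all genes ran from 1.73% to 14.6% in the filtered fit. Of 10916 genes tested, 0% passed in 7 of the comparisons, 0.0183% (2 genes) for HT 4 weeks minus HT sham and 0.0458% (5 genes) for the HT minus WT average, while 189 to 1598 genes had an unadjusted p under 0.05. The comparisons share groups, so their values for a gene are not independent. In the comparison of 4 weeks with 1 week after 10 cGy, averaged over genotypes, Dio2 was at 0.91 ± 0.31 (adjusted p = 0.235; 0.48 without the muscle-rich arrays, unadjusted p = 0.295) and Cidea at -1.11 ± 0.43 (adjusted p = 0.273; -0.43 without HT 1-week array 2 and -1.78 without HT 1-week array 1). Cox7a1 at 1 week minus sham in WT was -1.10 ± 0.50 (adjusted p = 0.976; -0.44 without WT sham array 2). The intervals are wide with 2 or 3 arrays a group: that of Cidea for HT 1 week minus sham spans -0.03 to 2.69. In whole glands, fewer cells of a type and less RNA per cell cannot be told apart.

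**Figure D3:**
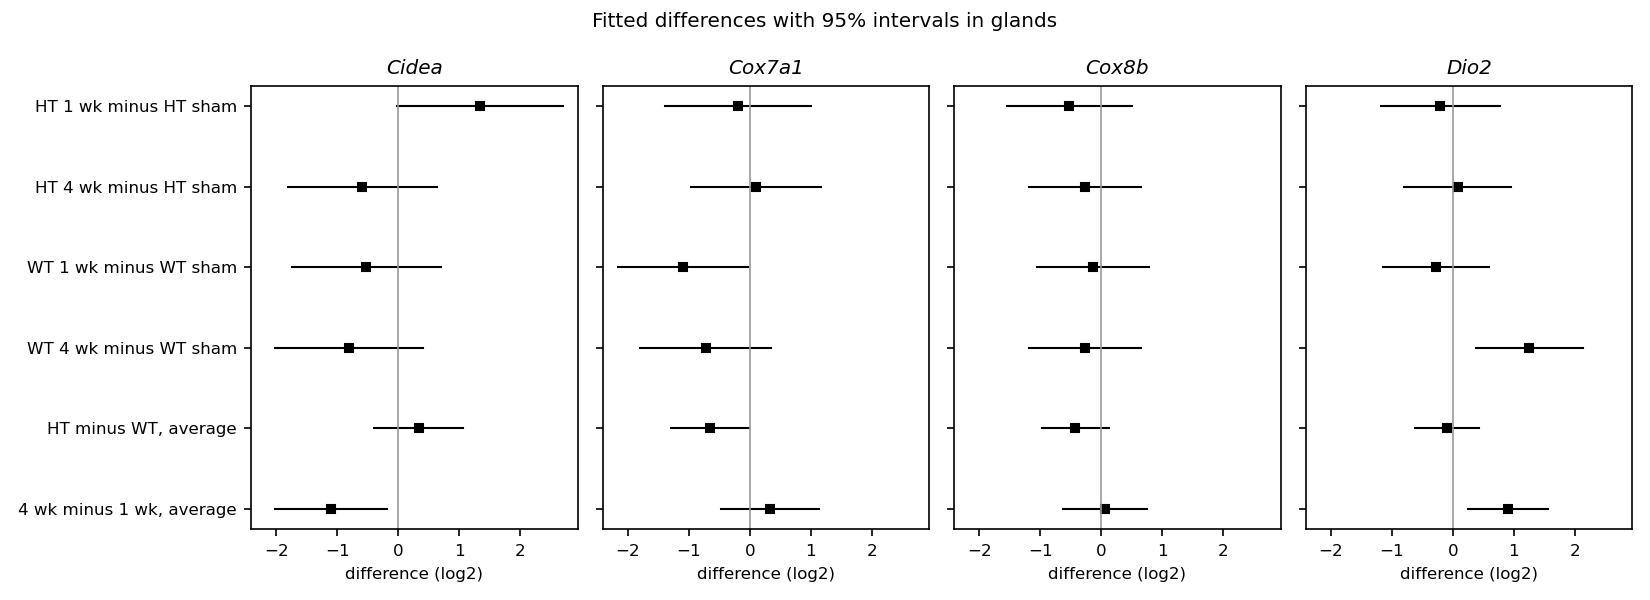
Differences (log2) of the 4 detected genes in 6 gland comparisons, squares with 95% intervals from the limma fit; the vertical line marks 0. Intervals that leave out 0 include that of Dio2 for WT 4 weeks minus sham, 0.38 to 2.13, and that of Cox7a1 for the HT minus WT average. None of these 4 genes passed after adjustment.

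In the wider thermogenic programme no listed gene passed either. Of 14 tested effectors of brown fat metabolism 0 passed in any of the 9 gland comparisons, and 0 of 11 tested regulators. In WT glands 4 weeks minus sham, 6 effectors had a positive and 8 a negative difference, with a median of -0.04, against 0.02 over all genes. For HT minus WT averaged over conditions the effectors' median was -0.08 (3 positive, 11 negative) and that of the regulators -0.02, against -0.03 over all genes. Single effectors spread widely. Fabp3, a fatty acid binding protein of muscle, brown fat and the lactating mammary gland, was at -0.57 ± 1.38 for WT 4 weeks minus sham. For HT 1 week minus sham it was at 3.39 ± 1.54 (adjusted p = 0.998). The HT 1-week group holds array 2, which was highest in milk genes and also muscle-rich, and a part of either was not tested. Pank1, which makes coenzyme A, was at 0.17 ± 0.19 for WT 4 weeks minus sham. Ebf2, a transcription factor that marks brown and beige precursors, was at -0.12 ± 0.34 and Cited1, a beige marker, at 0.11 ± 0.70 in the same comparison. The 18 respiratory chain genes had a median of 0.01 for the HT minus WT average, where 12 were positive and 6 negative.

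Tumours expressed some of these genes and not others. Ucp1 and Elovl3 were above background in 0 of 48 tumours (Ucp1 3.70 to 4.94, Elovl3 3.94 to 5.33). Cidea was above background in 37 of 48, Cox7a1 and Dio2 in 34 each, Ppargc1a in 33, Cox8b in 19 and Prdm16 in 8, so no member was above background in all tumours. At the 99th percentile of the receptor probe sets the counts were 30 for Cidea, 27 for Ppargc1a, 23 for Dio2, 19 for Cox7a1, 10 for Cox8b and 0 for the main probe set of Prdm16 (1429309_at). The probe sets 1440870_at and 1440745_at of Prdm16, up to 7.53 and 6.58, were each above that limit in 1 tumour. A tumour had between 1 and 6 of the 8 genes above background, with a median of 3.5. The tumours that had Cidea above background had Ppargc1a above it in 31 of 37 cases.

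**Figure D4:**
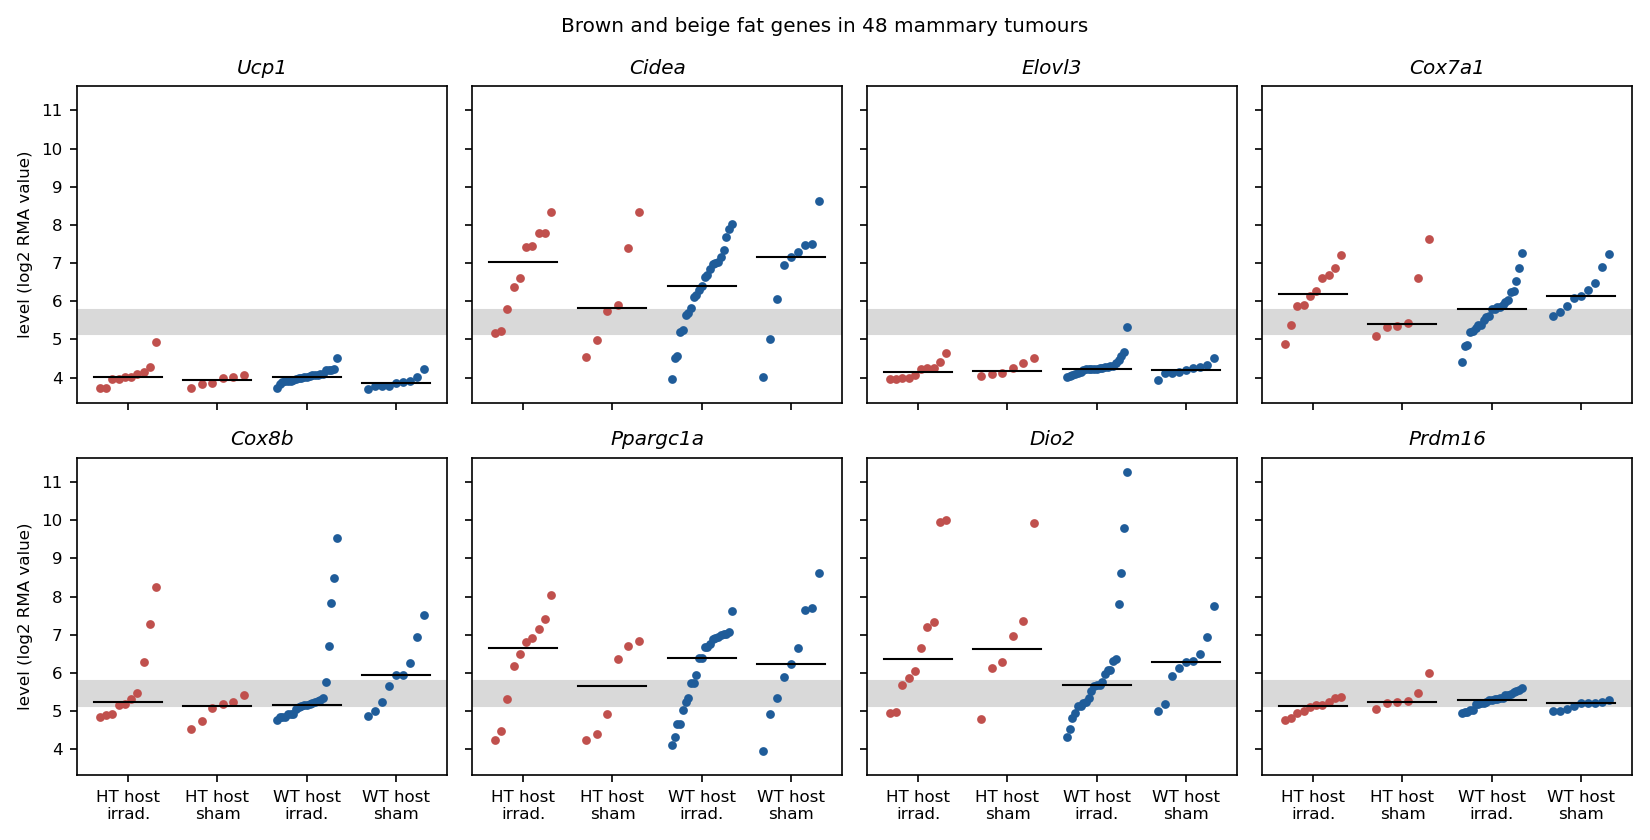
Levels of the 8 genes (log2 RMA value) in 48 tumours, those from HT hosts in red and WT hosts in blue, irradiated left of sham, sorted by level within a group; black lines are group medians and the grey band spans the receptor background of the 48 arrays. Ucp1 and Elovl3 stay within or under the band, and the highest tumours reach 9.54 for Cox8b and 11.26 for Dio2.

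Cidea and Ppargc1a varied widely among tumours. Cidea ran from 5.17 to 8.34 (median 7.02) in tumours of irradiated HT hosts and from 4.53 to 8.34 (median 5.83) in sham HT hosts, and from 3.98 to 8.03 (median 6.39) in irradiated WT hosts and from 4.01 to 8.62 (median 7.16) in sham WT hosts. All 4 groups overlapped. Ppargc1a (1456395_at) ran from 4.25 to 8.05 (median 6.65) in irradiated HT hosts and from 4.25 to 6.83 (median 5.65) in sham HT hosts, and from 4.11 to 7.62 (median 6.40) in irradiated WT hosts and from 3.94 to 8.62 (median 6.24) in sham WT hosts. Its 5 probe sets agreed across tumours, with correlations of 0.93 to 0.98, where in glands they were 0.25 to 0.73. Cidea and Ppargc1a gave r = 0.50 over 48 tumours (permutation p = 0.0003, adjusted p = 0.003 over 10 pairs; rho 0.47, adjusted p = 0.0099), 0.52 without the 2 farthest tumours and 0.49 on deviations from group means. The tumour relations were chosen after the levels had been seen.

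In 4 tumours the mean of the luminal epithelial genes, which mark the milk-duct lining, lay at 7.10 to 8.00, apart from the other 44. Among those 44, Ppargc1a and the luminal mean gave r = 0.55 (permutation p = 0.00014, adjusted p = 0.00245 over 35 relations) and rho 0.41 (adjusted p = 0.0626), with r at 0.48 without the 2 farthest tumours. Cidea gave r = 0.30 (adjusted p = 0.19) and rho 0.20 (adjusted p = 0.499) with the same mean. Cidea and the milk mean gave r = 0.47 (permutation p = 0.00074, adjusted p = 0.0086; rho 0.38, adjusted p = 0.0672) over 48 tumours, and 0.39 without the 2 farthest. Ppargc1a was related inversely to the mean of 6 endothelial genes over the 47 tumours that exclude 1 apart from the rest (r = -0.41, permutation p = 0.0039, adjusted p = 0.0339; rho -0.44, adjusted p = 0.0343), with r at -0.43 without the 2 farthest.

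Dio2 had the widest range of the 8 in tumours, 4.32 to 11.26. It ran from 4.94 to 9.995 (median 6.35) in irradiated HT hosts and from 4.79 to 9.92 (median 6.62) in sham HT hosts, and from 4.32 to 11.26 (median 5.69) in irradiated WT hosts and from 5.01 to 7.76 (median 6.28) in sham WT hosts. The group of sham WT hosts had the lowest maximum, and the 4 groups overlapped. Against the endothelial mean r was 0.64 over the 47 tumours (permutation p = 1e-05, the smallest that these permutations can give, adjusted p = 0.00035) and rho 0.57 (adjusted p = 0.00105), 0.64 without the 2 farthest tumours and 0.62 on deviations from group means. Among the 44 tumours not low in luminal genes, Dio2 and the luminal mean gave r = -0.41 (permutation p = 0.00642, adjusted p = 0.0449). By rank the relation was weak (rho -0.08, adjusted p = 0.714), and r was -0.27 without the 2 farthest tumours. Dio2 and Ppargc1a gave r = -0.40 over 48 tumours (permutation p = 0.00517, adjusted p = 0.0258) and rho -0.24 (adjusted p = 0.336). Other probe sets of Dio2 were above background in 3 and 4 tumours and correlated with the main one and each other at 0.73 to 0.88.

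Cox8b was high in tumours that were high in skeletal muscle genes. In 5 tumours the muscle mean was 9.44 to 10.59, and there Cox8b read 7.28 to 9.54, above background in all 5. Among the other 43 tumours it read 4.52 to 7.83 with a median of 5.18, above background in 14, and r with the muscle mean was 0.19 (permutation p = 0.2) and rho 0.22 (permutation p = 0.155). The highest of the 43, tumour 3 of irradiated WT hosts at 7.83, had a muscle mean of 4.82. By host group Cox8b ran from 4.85 to 8.24 (median 5.25) in irradiated HT hosts and from 4.52 to 5.43 (median 5.13) in sham HT hosts, and from 4.78 to 9.54 (median 5.17) in irradiated WT hosts and from 4.86 to 7.53 (median 5.95) in sham WT hosts. Tumour 2 of irradiated WT hosts had both the highest Cox8b (9.54) and the highest Dio2 (11.26), with a muscle mean of 9.46 and a luminal mean of 7.61, one of the 4 low ones. Genes most like Cox8b were sought among 11857 genes with a mean at or over its own, and named after their values were seen. They were Cox6a2 (r = 0.82), Pgam2 (0.80) and Actn3 (0.80), the last of them in the skeletal muscle list, over 48 tumours, the 5 high in muscle genes included. Among the same 11857 genes the most alike was Atp6v1e1 for Cidea (r = 0.74), Pet100 for Cox7a1 (0.60), Auh for Ppargc1a (0.78) and Mrgprf for Dio2 (0.82). Cox7a1 ran from 4.41 to 7.64 over all tumours and gave r = 0.31 with Cox8b (permutation p = 0.0338, adjusted p = 0.0563) and rho 0.20 (adjusted p = 0.336).

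**Figure D5:**
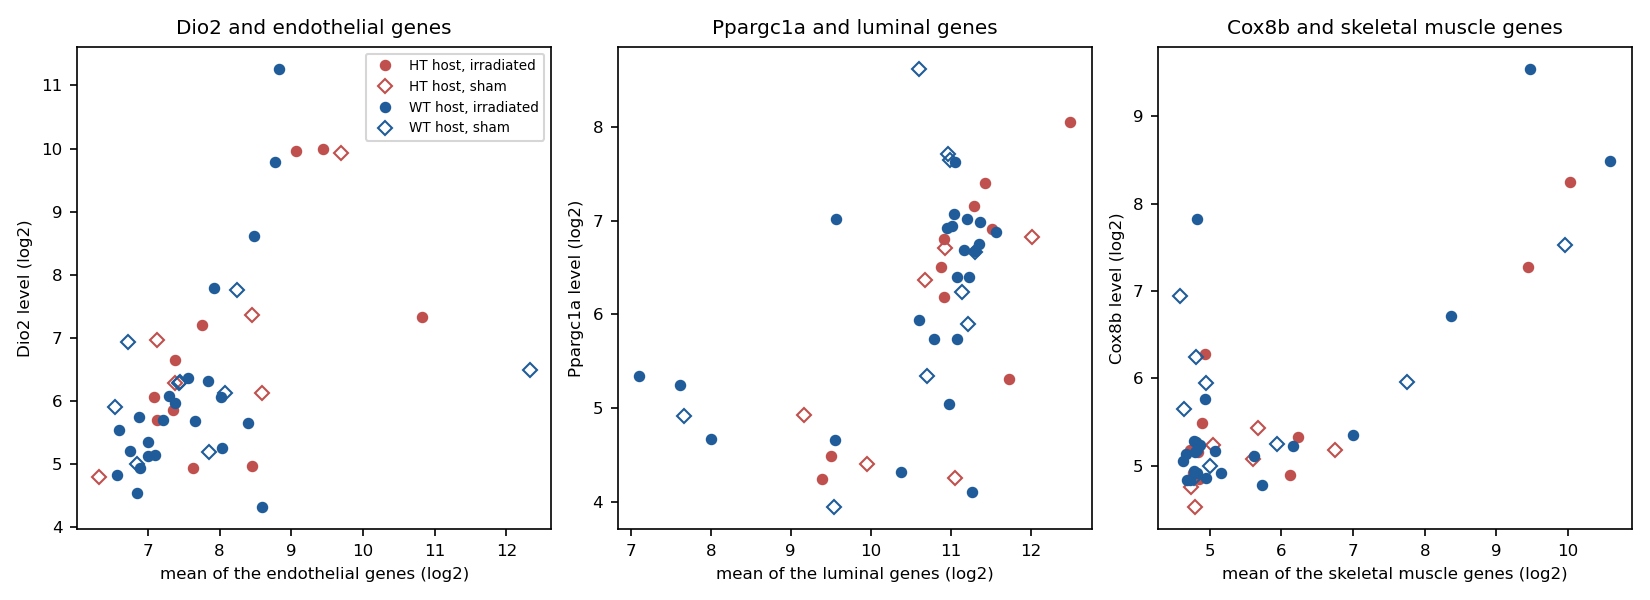
Dio2, Ppargc1a and Cox8b levels (log2) in 48 tumours against the mean log2 level of endothelial, luminal and skeletal muscle genes; red marks HT and blue WT hosts, filled circles irradiated and open diamonds sham hosts. Dio2 follows the endothelial mean (r = 0.64 without the tumour at the far right), 4 tumours stand low in luminal genes, and 5 tumours high in muscle genes have Cox8b at 7.28 or more.

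No gene passed the threshold between host groups. In each of the 5 tumour comparisons 0% of 10916 genes passed limma's threshold, with 442 to 719 genes at an unadjusted p under 0.05. Cidea and Dio2, the tested members, had 0 of 10 unadjusted p-values under 0.05, and the other 6 genes, in a fit with no filter, had 3 of 30, all of them Prdm16. These are 0% and 10% of the tests, against 5.17% and 5.84% of the tests of all genes. For irradiated minus sham WT hosts the difference was -0.38 ± 0.46 for Cidea (SE; 95% interval -1.31 to 0.56, adjusted p = 0.938) and -0.08 ± 0.61 for Dio2 (interval -1.31 to 1.16, adjusted p = 0.991). For irradiated minus sham HT hosts it was 0.65 ± 0.61 for Cidea (adjusted p = 0.999) and -0.04 ± 0.81 for Dio2 (adjusted p = 0.999). Between irradiated hosts, HT minus WT was 0.50 ± 0.45 for Cidea and 0.72 ± 0.59 for Dio2 (adjusted p = 0.956 for both). Prdm16 (1429309_at), above background in 8 tumours, had a change with irradiation in HT hosts minus that in WT hosts of -0.41 ± 0.14 (unadjusted p = 0.0048, adjusted p = 0.999). The intervals still hold changes of more than 1 log2 unit in Cidea and Dio2.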

How the data were processed

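Per the labels, RNA (80 ng from glands, 100 ng from tumours) was labelled for Affymetrix arrays. The authors deposited gland values as linear intensity and tumour values as log2; per the submitters' processing notes RMA made both, a method of background correction, quantile scaling and probe set summary. The sources used here give no version. Depth is not defined for arrays, whose number limits precision. Gland intensity was converted to log2 here. Gene names came from the platform annotation (34958 of 45101 probe sets with 1 gene, 932 with several, 9211 with none), with 99.4% of gene identifiers found in a RefSeq table (GRCm38.p6). Genes with means under the 40th percentile of genes (5.33 in glands, 6.19 in tumours) were set aside, leaving 10916 of 18194 in each tissue, among them Cidea, Cox7a1, Cox8b and Dio2 in glands and Cidea and Dio2 in tumours.

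Differences were fitted with limma 3.58.1 in R 4.3.3, with 1 mean per group over all arrays of a tissue, empirical Bayes variances with trend and Benjamini-Hochberg adjustment over all genes tested. Nothing in the labels says that gland repeats are separate animals, so p-values may measure technical spread. Deviations of same-numbered arrays correlated at 0.11 to 0.33 between HT 4-week and sham glands, over 0.1 in all 3 pairs, which the labels do not explain; between WT 4-week and sham glands it was 0.07 to 0.30 and between WT 1-week and sham -0.23 to 0.03. Correlations across arrays used 100000 permutations, or all of them for fewer than 10 arrays, and for relations with list means no pooled value where a gap of over 1 log2 unit in the list mean split the arrays. Correlations between members, between probe sets and with the most alike genes were pooled over all arrays, including those that stand apart. The fit was tested on simulated data. Members and gene lists were chosen with earlier results of these data known. Named genes are the members, their relatives, the leading tested genes of each list, and for each member above background in all glands the 3 genes with the highest Pearson r. Genes most like Cidea, Cox7a1, Cox8b, Ppargc1a and Dio2 in tumours were named as well.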

Additional observations from a re-analysis of the deposited data

Results flagged for a closer look

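Among 24 groups of 6 to 10 tumours examined for a single distant value (8 genes in 3 host groups), 1 stood out: Ucp1 at 4.94 in tumour 13 of irradiated HT hosts, with the next highest tumour of the 10 at 4.28. The gap was 0.55 of the range of the group. The value is under the receptor background of that array, and chance alone sets apart about 1 in 20 such groups.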

How the results depend on the processing

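No member that a fit tested passed the threshold in any of the 14 comparisons under any of 29 alternative gland fits or 8 alternative tumour fits, which changed the filter, the probe set rule, the normalization, added offsets, weights or covariates, or left out arrays; most fits tested 4 members in glands and 2 in tumours, and the fit with no filter tested all 8. The lowest adjusted p of a member under any of them was 0.0567 (Cidea, 4 weeks minus 1 week, without HT 1-week array 1). The count above background in every gland was 2 at the 99th percentile of receptor probe sets, in place of 4, and the count above background in no tumour was 1 with the 40th percentile of all probe sets as the limit, in place of 2. Of 345 repeats of 15 single differences 3 changed sign: Dio2 for HT 4 weeks minus sham to -0.18 with the white adipocyte mean as a covariate and to -0.311 without HT 4-week array 3 (single arrays left out gave -0.311 to 0.487), and Cidea for HT 1 week minus sham to -0.021 without HT 1-week array 2 (-0.021 to 2.689). The replicate block, which takes up the pairing of same-numbered arrays, left Dio2 for WT 4 weeks minus sham at 1.26 (p = 0.00343, limma adjusted p = 1.00) and called no member. Over all genes it called 1 for WT 1 week minus sham (0 without the block), 1 for HT 4 weeks minus sham (2) and 6 for the HT minus WT average (5). Dio2 fell under the filter when probe sets were averaged, so that fit gives no value. Fits without the 7 muscle-rich or the 3 lymph-node-rich arrays, with the milk mean as a covariate, or with the percentile of all probe sets as filter were chosen after seeing the data. Over the alternatives the number of genes called ran from 0 to 18 for 4 weeks minus 1 week (0 in the reported fit), 1 to 14 for the HT minus WT average (5), 0 to 17 for HT 4 weeks minus sham (2, and 17 with array weights), 0 to 3 for HT 1 week minus sham (0), 0 to 2 for the difference in change at 1 week (0) and 0 to 2 for HT minus WT irradiated hosts (0), none of them a member. It was at most 1 in the others. Probe sets near background limit Ppargc1a and Prdm16 in glands and Cox8b and Prdm16 in tumours.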

Other observations

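The general isoforms and relatives of the 8 genes were detected in tumours where several of the 8 were not. Cox7a2 read 13.11 ± 0.17, Cox8a 12.12 ± 0.27, Ppargc1b 7.09 ± 0.73 and Pprc1 9.37 ± 0.29 (SD, n = 48 each), and Elovl1, Elovl5 and Elovl6 were above background in all 48 tumours. Cidec, which coats lipid droplets of white fat cells, was above background in 15 of 48 tumours, and Ucp3 in 37. Dio1 was above background in 0 of 48 tumours. Ucp2, Dio3 and Adrb3 were not analysed here.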
